A study of Mus musculus with 2 samples.

Results

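The Eph receptors and their ephrin ligands were followed in liver RNA of HFD-fed mice that had received AAV-GFP or AAV-Wee1-AS. The group held 10 genes of 45777 gene symbols in the deposited table, namely the receptors Epha1, Epha2, Epha4, Ephb2, Ephb3, Ephb4 and Ephb6 and the ligands Efna1, Efnb1 and Efnb2. It was chosen by a readout of the same libraries, since Ephb2 was much lower after AAV-Wee1-AS, and Ephb2 is also among the genes that the study displays. The values below are therefore a description, and nothing is tested. C57BL/6 N mice were 7 weeks old at the start of the HFD, received AAV at week 13 of the diet and stayed on it for 18 weeks, so HFD feeding and AAV9 injection into the retro-orbital sinus were common to both groups. AAV-GFP encodes green fluorescent protein as a control, and AAV-Wee1-AS encodes Wee1-AS, a long noncoding RNA made opposite to the Wee1 gene. The CMV promoter of the vector and the AAV9 serotype do not restrict expression to hepatocytes. Each group had 1 library, and the sources used here do not say how many livers went into it. Both libraries came from poly-A RNA of whole liver, and held 55466182 (AAV-GFP) and 48079335 (AAV-Wee1-AS) estimated counts.

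Eph receptors are the largest family of receptor tyrosine kinases, and their ligands, the ephrins, sit in the membrane of the neighbouring cell. A-type ephrins are held by a lipid anchor and B-type ephrins span the membrane, so that contact between cells can signal into both partners, with repulsion or adhesion as the outcome. Signals run through exchange factors and adaptors to the actin cytoskeleton. Ephb4 and Efnb2 are best known as the venous receptor and the arterial ligand of endothelium, and Ephb2 and Ephb3 as receptors that place cells along the intestinal crypt.

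Values are given as estimated counts, as FPKM (counts divided by transcript length and library size, so that genes can be compared) and as the log2 ratio of TMM-scaled counts, AAV-Wee1-AS over AAV-GFP. Brackets hold exact 95% intervals. They cover counting error of these 2 libraries only, treat the estimates as counts and say nothing of the spread between mice. Where a gene is lower, fewer cells of a type and less RNA per cell cannot be told apart in whole liver.

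Ephb2 had the lowest ratio of the 10 genes. It had 588 counts after AAV-GFP and 24 counts after AAV-Wee1-AS. Its level was 0.833 FPKM in the first and 0.0388 FPKM in the second, and the log2 ratio was −4.25 (−5.00 to −3.76), a 19.0-fold lower level after AAV-Wee1-AS. Of the 15857 genes that passed the filter of 10 counts in either library, it was the 11th from the lowest ratio. This gene (NCBI gene 13844) lies on the minus strand at chr4:136647536-136836326 of mm10. No replicate library bears on this value.

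Ephb6, a receptor without kinase activity, was the other gene with a ratio below 0.5. It had 112 counts at 0.362 FPKM after AAV-GFP and 27 counts at 0.0889 FPKM after AAV-Wee1-AS. The log2 ratio was −1.72 (−2.45 to −1.17). The intervals of Ephb2 and Ephb6 lay wholly below a ratio of 0.5. Thus 2 of the 9 genes past the count filter had a ratio below 0.5, against 8.71% of all genes tested, and none (0 of 9) had one above 2, against 22.2%. Since Ephb2 chose the group, nothing is read from this count.

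Ephb3, the receptor paired with Ephb2 in the crypt, was lowly expressed. It had 32 counts at 0.117 FPKM after AAV-GFP and 15 counts at 0.0617 FPKM after AAV-Wee1-AS. The log2 ratio of −0.76 (−1.82 to 0.10) was not separated from 0 by counting error alone.

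Ephb4, the receptor of veins, was the B-type receptor of highest level. It had 2608 counts at 9.32 FPKM after AAV-GFP and 1550 counts at 6.43 FPKM after AAV-Wee1-AS. The log2 ratio was −0.49 (−0.58 to −0.40). The A-type receptors Epha1 and Epha2 stood close to it. Epha1, the founding member of the family, had 2542 counts at 12.1 FPKM and 1546 counts at 8.54 FPKM, with a log2 ratio of −0.45 (−0.55 to −0.36). Epha2, which can also signal without ligand, had 1665 counts at 6.58 FPKM and 977 counts at 4.51 FPKM, with a log2 ratio of −0.50 (−0.62 to −0.39). These 3 receptors were lower in the AAV-Wee1-AS library by nearly the same ratio, and lay slightly above 0 once trends with GC content and length, described below, were both removed.

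Epha4, which binds ephrins of both types, was at 0 counts in the AAV-GFP library, where 3 counts was set as the limit for 0. It had 9 counts at 0.0233 FPKM in the AAV-Wee1-AS library, a level 3.60-fold higher if the AAV-GFP library is put at that limit. The exact interval, which also covers the error of the 9 counts, begins at a log2 ratio of 1.24. It did not pass the count filter and is left out of the counts of genes with a ratio given here.

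Efna1, a lipid-anchored ligand first found as a gene induced by tumour necrosis factor, was the ligand of highest level. It had 1753 counts at 18.4 FPKM after AAV-GFP and 1064 counts at 12.9 FPKM after AAV-Wee1-AS. The log2 ratio was −0.46 (−0.57 to −0.35). The transmembrane ligand Efnb1 had 979 counts at 4.53 FPKM and 570 counts at 3.06 FPKM, with a log2 ratio of −0.52 (−0.67 to −0.37). Both ligands were lower in the AAV-Wee1-AS library to nearly the same degree as the 3 abundant receptors, and likewise lay slightly above 0 without both trends.

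Efnb2, the arterial ligand of Ephb4, was the only one of the 9 genes past the filter that was higher in the AAV-Wee1-AS library. It had 68 counts at 0.103 FPKM after AAV-GFP and 101 counts at 0.38 FPKM after AAV-Wee1-AS. The log2 ratio of the scaled counts was 0.81 (0.38 to 1.30). The FPKM values lie further apart than the counts because the 68 counts were assigned to a model of 10165 bases and the 101 counts to one of 4793 bases.

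**Figure D1:**
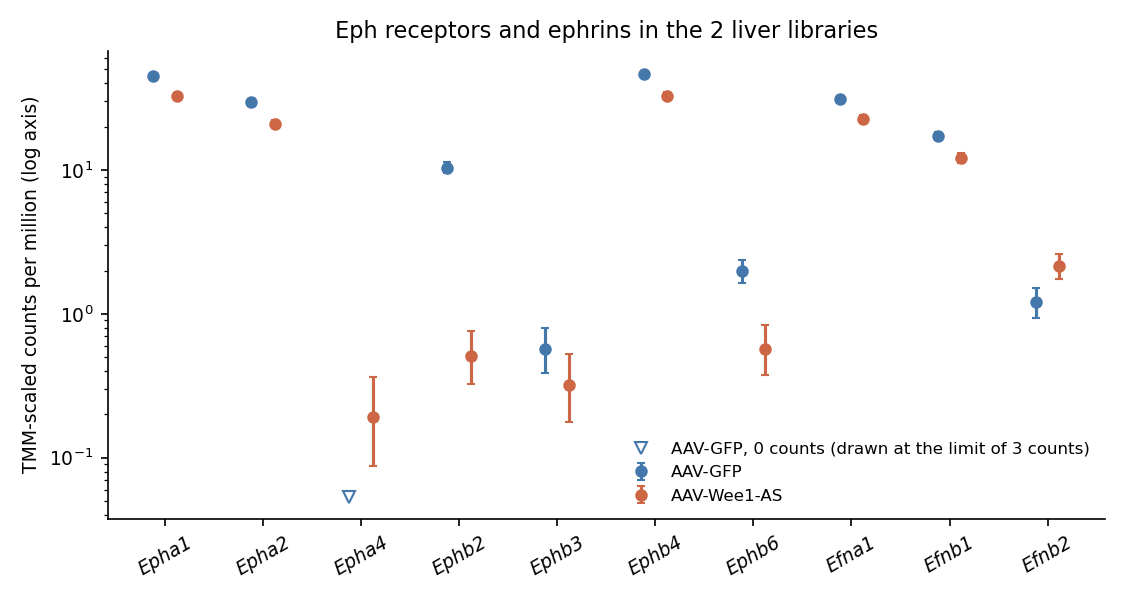
TMM-scaled CPM (log axis) of the 10 genes after AAV-GFP (blue) and after AAV-Wee1-AS (orange), 1 library per group, with exact 95% Poisson intervals of the counts. Ephb2 lies at 10.4 in the first and 0.509 in the second, and Epha4 has 0 counts after AAV-GFP and is drawn at the limit of 3 counts.

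Ephb2 stood at different places in the order of levels. After AAV-GFP, the receptors ranked Epha1, Ephb4, Epha2, Ephb2, Ephb6, Ephb3 and Epha4 by FPKM. After AAV-Wee1-AS, Ephb2 stood below Ephb6 and Ephb3, and the other receptors kept their order. In that library, the counting interval of Ephb2 (0.0249 to 0.0578 FPKM) overlapped that of Ephb3 (0.0345 to 0.102 FPKM) and that of Epha4 (0.0106 to 0.0442 FPKM), while the interval of Ephb6 began at 0.0586 FPKM. The ligands ranked Efna1, Efnb1 and Efnb2 in both libraries.

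The 3 abundant receptors kept nearly the same shares of the receptor pool. The FPKM of all 14 Eph receptor genes summed to 29.5 after AAV-GFP and to 19.9 after AAV-Wee1-AS. Epha1 made up 40.9% of the first sum and 42.8% of the second, Ephb4 31.6% and 32.3%, and Epha2 22.3% and 22.6%. Ephb2 made up 2.83% and 0.195%. The FPKM of all 8 ephrin genes summed to 23.7 and 17.4, of which Efna1 made up 77.5% and 74.1% and Efnb1 19.1% and 17.5%.

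Over the 9 genes past the filter, 8 had a ratio below 1, against 50.5% of all genes tested. Once both trends described next were removed, 3 did, against 7498 of the 14995 genes with a GC value. With the trends left in, the median log2 ratio was −0.50, against −0.02 over all genes tested. The interval lay wholly below 1 for 7 genes and wholly above 1 for Efnb2, against 38.0% and 39.1% of all genes tested. The 5 abundant genes Epha1, Epha2, Ephb4, Efna1 and Efnb1, each with more than 500 counts after AAV-GFP, spanned −0.52 to −0.45. Ephb2, also with more than 500 counts there, is the exception at −4.25.

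Across all genes, the log2 ratio was lower the higher the GC content of the transcript. Spearman's correlation coefficient was −0.67 over 14995 genes of these 2 libraries, given as a description. Over 10 groups of equal size by GC content, the median was 1.43 in the poorest and −0.69 in the richest. The 5 abundant genes hold between 54.2% (Efna1) and 58.4% (Ephb4) GC and fall in groups with medians of −0.50 to −0.69. Once trends with GC content and with length were taken out, these 5 genes lay between 0.01 and 0.13. Ephb2, at 55.3% GC in a group with a median of −0.50, then stood at −4.44. Ephb6 moved from −1.72 to −1.11 and Efnb2 from 0.81 to 0.67. Of the 9 genes, 2 still had a ratio below 0.5, against 8.54% of the genes with a GC value, and 0 had one above 2, against 7.38%. The median of the 9 was then 0.03. The part that GC content plays in these ratios was not tested.

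**Figure D2:**
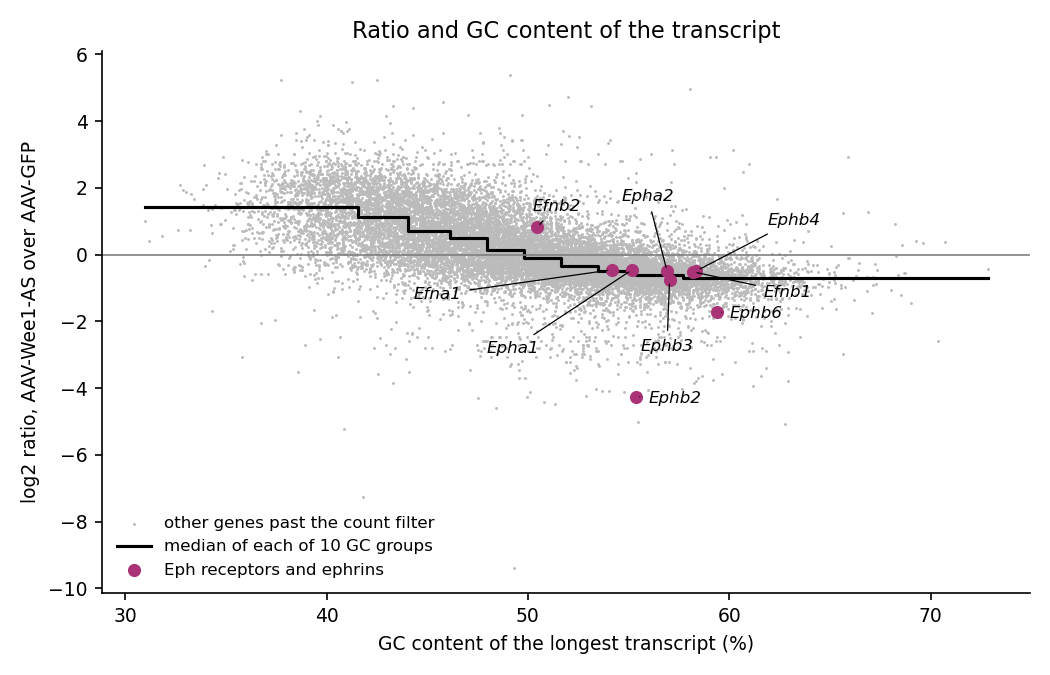
Log2 ratio of AAV-Wee1-AS over AAV-GFP against the GC content of the longest transcript (%) for the genes past the count filter. Grey points are other genes, the black line is the median of each of the 10 GC groups, and purple points are the 9 Eph receptors and ephrins, of which Ephb2 and Ephb6 lie furthest below the line.

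The other 12 Eph and ephrin genes of the mouse were lowly expressed. The lipid-anchored ligand Efna5 had 162 counts after AAV-GFP and 297 after AAV-Wee1-AS, with a log2 ratio of 1.13 (0.86 to 1.42) that became 0.30 when both trends were removed. The receptor Epha3 had 21 and 43 counts, with 1.21 (0.51 to 2.12) that became −0.23. The receptor Epha7 had 35 and 44 counts, with 0.56 (−0.08 to 1.28) that became −1.05. These 3 genes hold 41.7% to 44.8% GC, below each of the genes above past the filter. The receptor Ephb1 had 16 counts after AAV-GFP and 0 after AAV-Wee1-AS, a level 4.44-fold lower if 3 counts is put in place of 0. The exact interval, which also covers the error of the 16 counts, ends at a log2 ratio of −1.68. The ligand Efna2 had 17 and 6 counts, with −1.03 (−2.87 to 0.17) that became −0.27 when both trends were removed. Of the 5 past the filter, 2 had a ratio above 2 (against 22.2% of all genes tested) and 2 had one below 0.5 (against 8.71%). The 2 below 0.5, Ephb1 and Efna2, passed the filter only through the AAV-GFP library, so nothing is read from their count. With both trends removed, 0 of the 5 were above 2, against 7.38% of the genes with a GC value. Epha7 and Ephb1 were then the 2 below 0.5, against 8.54%, and nothing is read from this count either. Efna4 with 9 and 2 counts and Efnb3 with 4 and 0 did not pass it, and Epha5, Epha6, Epha8, Epha10 and Efna3 were listed at 0 in both libraries. All 5 B-type receptors had a ratio below 1, against 50.5% of all genes tested. Ephb3 was within counting error, and Ephb4 stood at 0.03 on the log2 scale with both trends removed. For 3 of the 5 (Ephb1, Ephb2 and Ephb6), the interval lay wholly below 0.5, against 3.72% of all genes tested. Since Ephb2 chose the group and Ephb1 passed the filter only through the library where it is high, nothing is read from these counts.

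**Figure D3:**
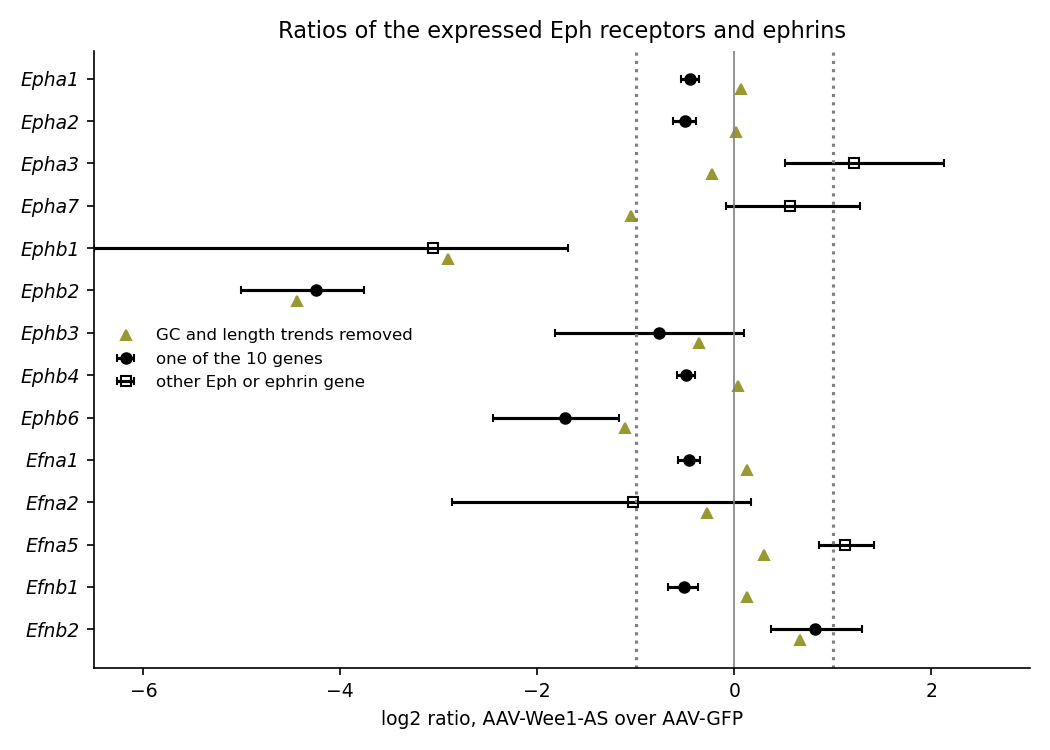
Log2 ratio of AAV-Wee1-AS over AAV-GFP of the 14 Eph and ephrin genes past the count filter, with exact 95% counting intervals (filled circles, genes of the group, open squares, other family members) and the ratio after both trends were removed (triangles). Dotted lines mark ratios of 0.5 and 2, and the interval of Ephb1, at 0 counts after AAV-Wee1-AS, is open to the left.

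Ephb2, Ephb4 and Efna1 were looked at by transcript, and the sequence in which a pair of RefSeq forms differs is shown for the first 2. The RefSeq forms of Ephb2 differ little in length, from 10823 to 10934 bases, so the assignment of counts among them is uncertain. After AAV-GFP, 532 of 588 counts (90.5%) were assigned to NM_001290753, 36 to XM_006538531, 11 to NM_010142, 8 to XM_030253191 and 1 to XM_006538534. After AAV-Wee1-AS, all 24 counts were assigned to XM_006538534, whose sequence was not compared here. NM_001290753 differs from NM_010142 within the coding part by 3 bases at the start of exon 7, at chr4:136675531-136675533 on the minus strand. In Ephb4, NM_001159571 carries 27 coding bases that NM_010144 lacks, at the start of exon 7, at chr5:137362363-137362389 on the plus strand. The sequences were read from GENCODE M21 transcripts of GRCm38, 5′ to 3′, with the added bases in capitals and 30 bases of flank on either side.
Ephb2 NM_001290753: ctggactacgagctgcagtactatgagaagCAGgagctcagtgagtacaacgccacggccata
Ephb4 NM_001159571: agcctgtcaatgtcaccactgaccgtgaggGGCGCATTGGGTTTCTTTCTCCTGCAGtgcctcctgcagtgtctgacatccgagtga

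The share of the longer Ephb4 form differed between the libraries. NM_001159571 had 833 counts after AAV-GFP and 280 after AAV-Wee1-AS, or 31.9% (30.2% to 33.8%) and 18.1% (16.2% to 20.1%) of Ephb4 counts, with exact binomial intervals that cover counting error only. Its log2 ratio was −1.30 (−1.51 to −1.11). NM_010144 had 1775 and 1270 counts, with a log2 ratio of −0.22 (−0.32 to −0.11). The intervals of both shares did not overlap, but the counts are estimates of the authors' software for forms that share nearly all of their bases, and no replicate shows how far such a share varies.

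Counts of other genes were also assigned to different forms in the libraries. All 68 counts of Efnb2 after AAV-GFP were assigned to XM_011242036, and all 101 after AAV-Wee1-AS to NM_010111. The first starts at 8647015 on chromosome 8 and the second at 8661242, further upstream on the minus strand. Ephb6 had 72 counts of XM_030255144 and 40 of NM_007680 after AAV-GFP, and 24 of XM_030255144, 0 of NM_007680 and 3 of XR_377419 after AAV-Wee1-AS. Epha2 was nearly all NM_010139 (1665 and 938 counts), with 39 counts of XM_006538528 in the AAV-Wee1-AS library only. Epha1 was nearly all NM_023580 (2539 and 1537 counts), and Efnb1 had the single form NM_010110. Among low counts, a move of all counts from one form to another may be a change of assignment, which was not tested.

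**Figure D4:**
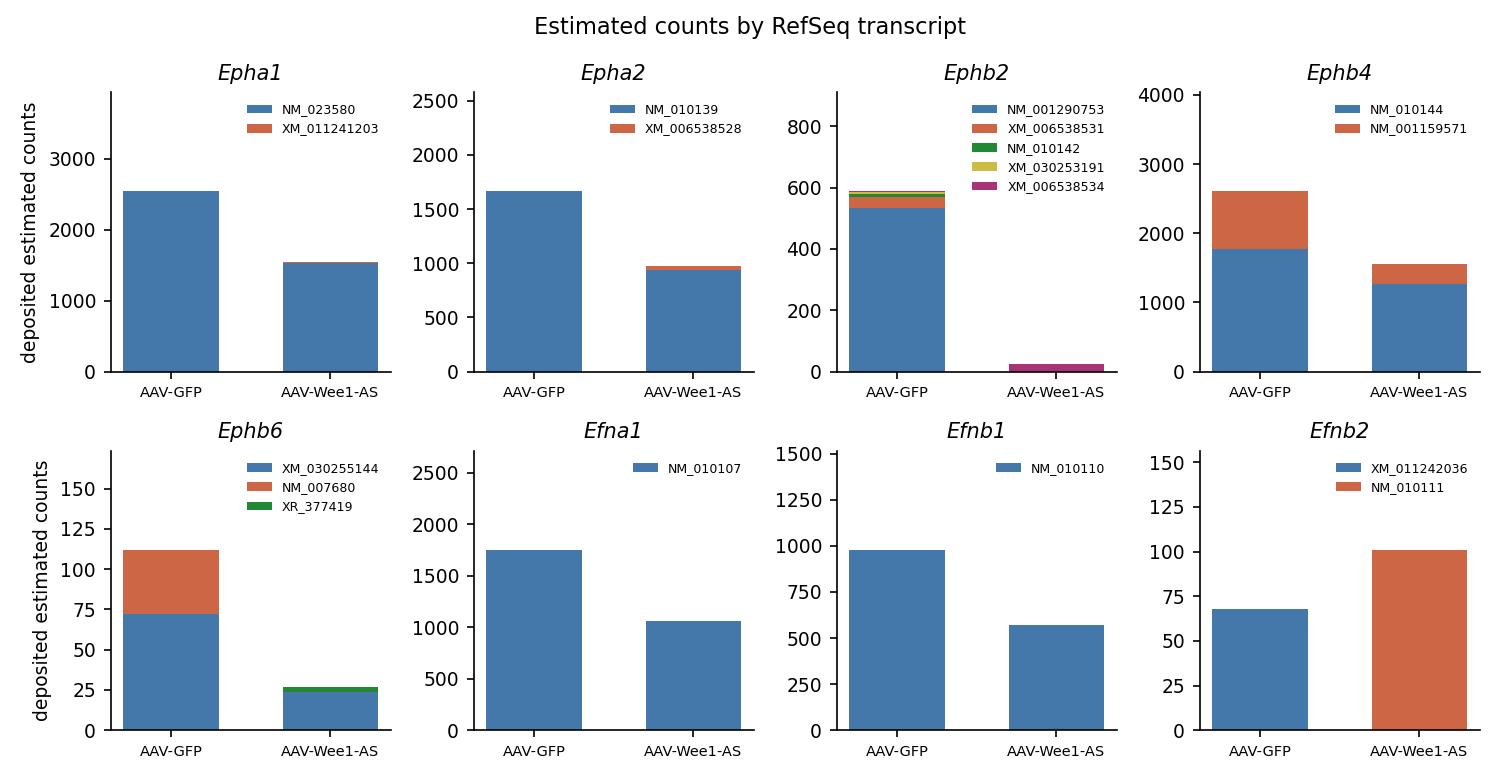
Deposited estimated counts of 8 genes stacked by RefSeq transcript, 1 bar per library, each panel with its own axis from 0. Ephb4 keeps both forms with a smaller share of NM_001159571 after AAV-Wee1-AS, while Ephb2 and Efnb2 have counts on different forms in the libraries.

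Efna1 has 2 annotated starts that lie 1306 bases apart, and all of its counts (1753 and 1064) were assigned to NM_010107, which begins at the downstream start. The other form, NM_001162425, was at 0 in both libraries. The 250 bases upstream of the start in use are shown beside those of Ephb4, since both genes had nearly the same ratio, and a short stretch of Ephb2 stands for its window. Sequences are from RefSeq (GRCm38.p6), 5′ to 3′ on the strand of the gene, with matches in capitals to GGGCGG (the GC box) and CCAAT, both searched on both strands.
Efna1, chr3:89279646-89279895, minus strand: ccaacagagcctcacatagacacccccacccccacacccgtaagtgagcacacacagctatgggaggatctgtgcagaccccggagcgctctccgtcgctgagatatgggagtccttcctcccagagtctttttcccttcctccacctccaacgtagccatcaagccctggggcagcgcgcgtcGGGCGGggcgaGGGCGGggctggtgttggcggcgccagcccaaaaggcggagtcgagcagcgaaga
Ephb4, chr5:137349859-137350108, plus strand: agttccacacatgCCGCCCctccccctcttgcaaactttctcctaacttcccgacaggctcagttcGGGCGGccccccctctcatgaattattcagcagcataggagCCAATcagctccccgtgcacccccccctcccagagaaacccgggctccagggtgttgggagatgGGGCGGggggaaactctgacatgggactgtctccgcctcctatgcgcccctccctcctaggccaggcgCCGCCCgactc
Ephb2, chr4:136836060-136836088, minus strand: cagaggcacaggATTGGcagtccaacccc

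The Efna1 window holds 2 GC boxes, and the Ephb4 window holds 4 GC boxes and 1 CCAAT. The Ephb2 window of the same length, with 68.4% GC, holds 0 GC boxes and 1 CCAAT match in reverse, which ends 59 bases before the start. GGGCGG was found in the windows of 8 of the 10 genes, against 32.7% of 32851 windows of the same length. The windows of the 10 stand at 1 annotated start of each gene (either start for Efna1). Not all counts were assigned to forms that begin there, with 0 and 0 counts for Ephb3, 40 and 0 for Ephb6 and 0 and 101 for Efnb2. The counted form of Ephb3, XM_006521788, starts at 21204620 on chromosome 16, within its window and ahead of the 2 GC boxes there. CCAAT was found in 5 of 10, against 33.8%. TATAAA was found in 1 of 10 (Efnb2), against 12.4%, and CACGTG in 0 of 10, against 6.02%. The median window holds 52.4% GC, below each window of the 10 genes, which hold from 54.4% (Epha1) to 76.8% (Ephb6). Those of Efna1 and Ephb4 hold 64.4% and 64.0%. The shares of all windows given here are not matched for GC content. A match is a description of letters and not a bound site.

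Of 15 genes that overlap Ephb2 or lie within 250 kb of it, 9 were at 0 in both libraries, and the 6 with counts had log2 ratios between −1.03 and 0.88. The complement genes C1qa, C1qb and C1qc, made by macrophages, lie next to it and had 5990, 6209 and 5591 counts after AAV-GFP and 2654, 2563 and 2283 after AAV-Wee1-AS. Their log2 ratios were −0.91, −1.01 and −1.03, and −0.10, −0.26 and −0.27 with both trends removed. Luzp1 had 530 and 814 counts, Kdm1a 466 and 573, and Zbtb40 449 and 403. Gm31536 and LOC115489948, which overlap Ephb2, were at 0 in both libraries. Genes that overlap another of the 10 were looked up after the values were seen. Zyx overlaps one end of Epha1 and had 3194 and 1749 counts, with a log2 ratio of −0.60 that became 0.01 with both trends removed. 2010310C07Rik, which also overlaps Epha1, had 0 and 2 counts, and Mir6352, which overlaps Epha4, was at 0 in both libraries.

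The genes nearest to Ephb2 by distance in log2 CPM over these 2 libraries were Cbr3, Sprr1a and Fam83a. Cbr3, a carbonyl reductase, had 739 and 35 counts at a distance of 0.608. Sprr1a, a cornified envelope protein, had 991 and 24 counts at a distance of 0.751. Fam83a had 499 and 43 counts at a distance of 0.830. With 2 libraries, this measure says only that their levels were alike.

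Downstream of the receptors, 50 of 52 listed genes of the pathway passed the filter. A ratio above 2 was seen for 11 (22%, against 22.2% of all genes tested) and one below 0.5 for 5 (10%, against 8.71%), so both shares were near the background. The median log2 ratio was −0.06. After both trends were removed, 2 of 50 had a ratio above 2 (against 7.38% of the genes with a GC value) and 5 one below 0.5 (against 8.54%). The values that follow are log2 ratios. Of the genes with a ratio above 2 named below, Vav3 then stood at 1.62, Rasa1 at 1.30, Yes1 at 0.95 and Ptk2 at 0.73. Crk and Abl2 stood at 0.66, Adam10 at 0.59, Acp1 at 0.09 and Nck1 at −0.10. Of those below 0.5, Src stood at −1.03, Mmp2 at −1.02, Mmp9 at −0.72 and Dok1 at −0.23. Kalrn, an exchange factor, moved from −0.17 to −1.49. Of the most abundant genes named below, Ngef (0.52), Grb7 (0.33), Chn2 (−0.32) and Lyn (−0.50) lay on the other side of 0 with both trends removed. Ptpn1 then stood at −0.13 and Psenen at −0.17.

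Among guanine exchange factors, 1 of 7 was above 2 and 0 below 0.5. Ngef (ephexin), which binds EphA receptors, was the most abundant at 9.72 and 9.12 FPKM, with a log2 ratio of −0.05. Vav3 had 10 and 53 counts, with 2.43 (1.68 to 3.81). Among adaptors and scaffolds, 2 of 9 were above 2 and 1 below 0.5. Grb7 was the most abundant at 37.1 and 28.1 FPKM, with −0.35. The adaptors Nck1 and Crk were at 1.33 and 1.62, Nck1 on the other side of 0 with both trends removed, while Dok1 was just past the limit on the other side, with 161 and 66 counts. Of the 4 GTPase activating proteins, 1 was above 2 and 0 below 0.5. Chn2 was the most abundant at 9.89 and 11.7 FPKM, with 0.29, and Rasa1, which binds EphB2 and acts on Ras, had 130 and 662 counts, with 2.59 (2.34 to 2.89).

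Among nonreceptor kinases, 3 of 7 were above 2 and 1 below 0.5. Yes1 had a log2 ratio of 2.33, Abl2 of 1.42 and Ptk2, the focal adhesion kinase, of 1.32. Src, the kinase engaged by ephrins of the B type, had 321 and 86 counts, with −1.62 (−2.0 to −1.29). Lyn was the most abundant at 5.56 and 5.76 FPKM, with 0.09.

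Of 4 phosphatases and ubiquitin ligases, 1 was above 2 and 0 below 0.5. Acp1, the low molecular weight phosphatase recruited by Eph receptors, had 1068 and 1962 counts, with 1.14 (1.03 to 1.25), and Ptpn1 was the most abundant after AAV-GFP, at 8.05 and 5.29 FPKM (−0.56), while Acp1 was at 5.34 and 11.4 FPKM. Among 7 proteases that shed or cut ephrins and Eph receptors, 1 was above 2 and 2 below 0.5. Adam10, which cuts ephrins on contact, had 322 and 979 counts, with 1.86 (1.68 to 2.05). Mmp2 had 478 and 131 counts, with −1.59 (−1.89 to −1.32), and Mmp9 was at −1.27. Psenen, a subunit of gamma-secretase, was the most abundant at 71.7 and 40.0 FPKM, with −0.79. Of the 2 partner receptors, neither passed 2-fold. Sdc2, a syndecan phosphorylated by EphB receptors, was at 19.6 and 31.8 FPKM, with 0.74, and lay at −0.44 with both trends removed.

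**Figure D5:**
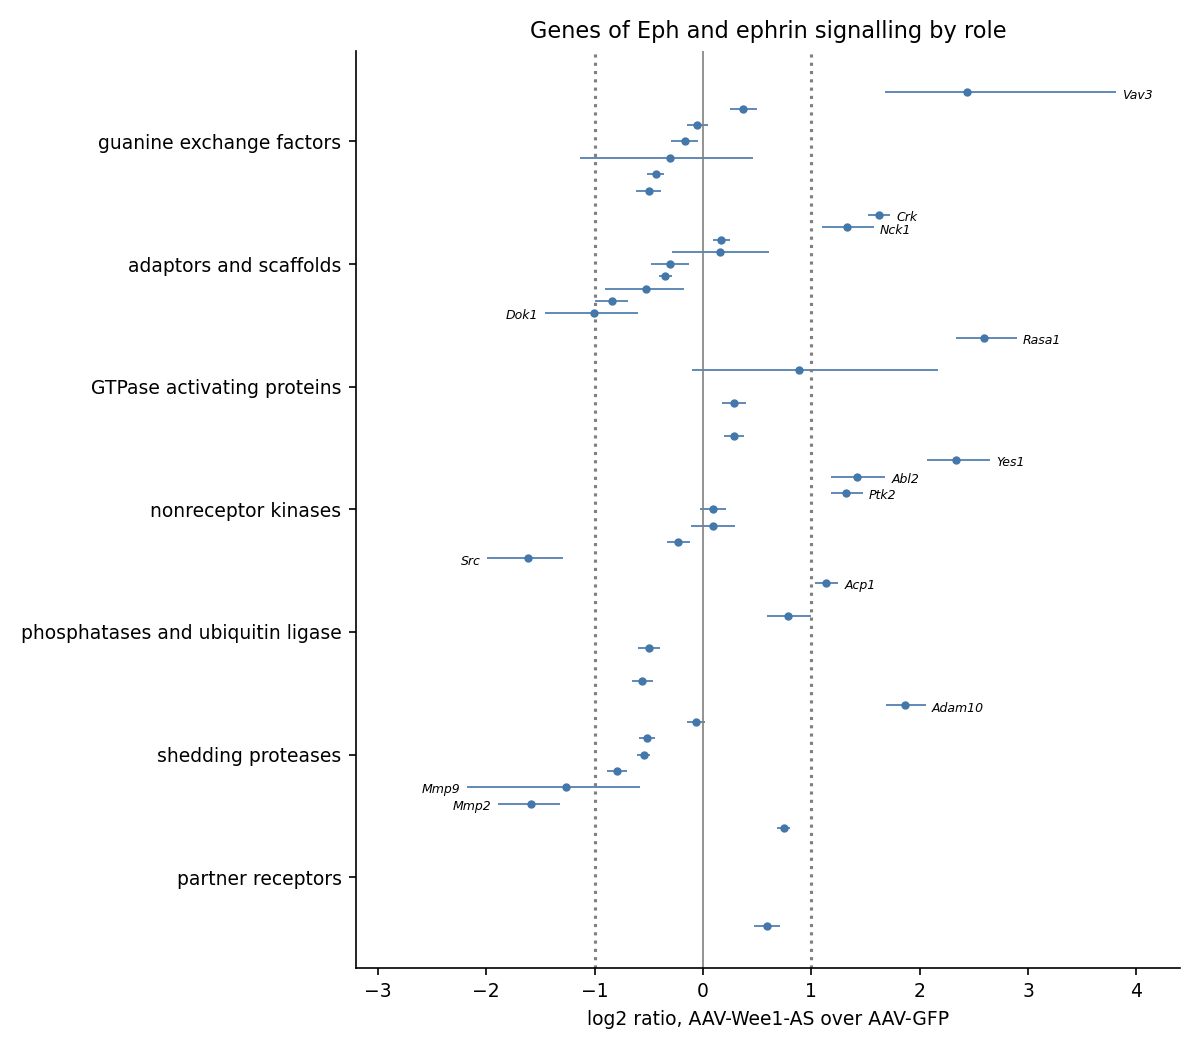
Log2 ratio of AAV-Wee1-AS over AAV-GFP of 40 genes of Eph and ephrin signalling in 7 roles, with exact 95% counting intervals. Dotted lines mark ratios of 0.5 and 2, and the 13 genes past them are named.

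Markers of liver cell types stood beside these values as follows. A ratio above 2 was seen for 22.2% and one below 0.5 for 8.71% of all genes tested, and for 7.38% and 8.54% with both trends removed. Of 7 markers of monocyte-derived macrophages, 0 were above 2 and 5 below 0.5, and none was at 0. These 5 were Gpnmb (−3.44), Itgax (−2.24), Trem2 (−2.08), Cd9 (−1.28) and Ly6c2 (−1.02), while Lyz2 was at 0.09 and Ccr2 at 0.68. With both trends removed, Lyz2 stood at 0.01 and Ccr2 on the other side of 0, at −0.93. The median log2 ratio of that list was −1.28 (−1.70 with both trends removed), and its FPKM summed to 64.0 after AAV-GFP and 46.8 after AAV-Wee1-AS, of which Lyz2 alone made up 36.6 and 37.8. The part of these cells in the value of Ephb2 was not tested.

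Of 6 Kupffer cell markers, 3 were above 2 and 0 below 0.5, with Cd5l at −0.76 and Clec4f at −0.15. On the log2 scale, Marco was at 1.60, Vsig4 at 1.52 and Timd4 at 1.40. With both trends removed, only Marco kept a ratio above 2, at 2.22 on the log2 scale. The median was 0.75 (0.48 with both trends removed) and the sums were 170 and 136 FPKM. Of 4 neutrophil markers, 2 were below 0.5, S100a9 (−1.31) and Retnlg (−1.43), with Csf3r at −0.47, a median of −0.89 (−1.29) and sums of 7.45 and 3.56 FPKM. Of 8 hepatocyte markers, 2 were above 2, Apob (1.82) and Cps1 (1.21), which became 0.08 and 0.44 with both trends removed. Alb was at 19165 and 26807 FPKM (0.53) and Ttr at −0.62, with a median of 0.07 (0.15) and sums of 39684 and 43827 FPKM.

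Ephb4 and Efnb2 are best known from endothelium. Of 9 sinusoidal endothelial markers, 0 were past 2-fold. The interval lay wholly below 1 for 5 and wholly above 1 for 2, against 38.0% and 39.1% of all genes tested. Stab1 was at −0.71, Stab2 at −0.27 and Kdr, the highest, at 0.55, with a median of −0.27 (−0.35 with both trends removed) and sums of 115 and 93.8 FPKM. Of 5 arterial and portal endothelial markers, 1 was below 0.5, Dll4 (−1.06), which became −0.56 with both trends removed and was then not past 2-fold. Vwf was at −0.55, Hey1 at −0.03, Sox17 at 0.42 and Gja5 at 0.53, with a median of −0.03 (0.39) and sums of 4.48 and 2.88 FPKM. Of 7 stellate markers, 1 was above 2 (Lrat, 1.46) and 1 below 0.5 (Pdgfrb, −1.09). The interval lay wholly below 1 for 4 and wholly above 1 for 3, against 38.0% and 39.1% of all genes tested. Dcn was at 0.33 and Reln at 0.25, with a median of −0.58 (−0.36) and sums of 90.4 and 78.8 FPKM. With both trends removed, Lrat stood at 0.05 and Pdgfrb at −0.89, and the 1 stellate marker below 0.5 was Dcn, at −1.18.

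Of 5 cholangiocyte markers, 1 was below 0.5, Cldn4 with 18 and 0 counts, with Sox9 at 0.79, Krt19 at −0.67, a median of −0.18 (0.09 with both trends removed) and sums of 2.08 and 1.81 FPKM. Of 6 T cell markers, 1 was below 0.5, Cd8a with 31 and 4 counts, with Lck at −0.65, Cd3e at −0.02, a median of −0.22 (−0.33) and sums of 2.08 and 1.84 FPKM. Of 4 B cell markers, 1 was above 2, Ms4a1 with 0 and 23 counts, with Cd79b at 0.08, Cd79a at −0.95, a median of −0.37 (0.17) and sums of 2.00 and 1.58 FPKM. Cldn4, Cd8a and Ms4a1 passed the filter only through the library where they are high, so nothing is read from these 3. How far any of these cells move the 10 genes was not tested.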

How the data were processed

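Poly-A RNA of liver was sequenced in 2 libraries, 1 per group, from a stranded kit with paired reads. The series' design text names 4 liver samples, and 2 were analysed here. Submitters' processing notes name Trimmomatic 0.38, HISAT2 2.1.0, SAMtools 1.9, StringTie 2.1.3b and mm10, without their order. The authors deposited 1 table of 129299 RefSeq transcripts with estimated counts, FPKM and TPM per library, and the transcript length as another column. The estimated counts equal FPKM times length times a constant, rounded up (99.7% of counts under 1000 in each library), so they are not reads counted directly.

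Counts were summed per gene symbol and scaled by TMM (edgeR 4.0.16, R 4.3.3). The scaling factors were 1.02 and 0.980. Log2 ratios used a prior count of 2, and genes with at least 10 counts in 1 library were kept. A ratio above 2 or below 0.5 was counted. Intervals of ratios and shares are Clopper-Pearson at 95%, those of levels (CPM and FPKM) are exact Poisson at 95%, and 3 counts served as the limit for 0. GC content came from the longest GENCODE M21 transcript (GRCm38) of 14995 genes, and trends were removed by lowess (span 0.3, 5 cycles, statsmodels 0.14.6). The ratio and interval code was tested on simulated data. With 1 library per group, no test was run.

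The 10 genes and all lists were chosen with earlier results of these data known. Named genes were all 10, the other family members, pathway genes with an interval wholly past 2-fold or most abundant in their role, the 2 markers of highest count per cell list, the 3 genes nearest to Ephb2, and genes overlapping the 10. Dok1, Mmp9, Kalrn, the other markers and the neighbours of Ephb2 were named after their values were seen. Alternatives were other scalings (DESeq2 1.42.0 size factors among them), filters, prior counts and units. The transgene was not analysed here, and 1 role of the pathway list, with 10 genes, is counted in its totals but not reported by gene.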

Additional observations from a re-analysis of the deposited data

How the results depend on the processing

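With 1 library per group, no library could be left out. No paired analysis was possible because each group has a single library and no test was run. The main setting put 2 of the 9 genes past the filter beyond 2-fold, and the count was 2 under library totals, DESeq2 size factors, upper quartile scaling, 10 counts in both libraries, a prior count of 0.5, removed trends and counts before rounding up (an alternative chosen after seeing the data). It was 3 with no filter, which adds Epha4, 0 with FPKM and 1 with TPM, each with a pseudocount of 1, which shrinks low genes, and 10 transcripts of 16. Other Eph and ephrin genes past 2-fold numbered 4 in the main setting, 2 with 10 counts in both libraries, 2 with trends removed, 0 with FPKM and 0 with TPM. Pathway genes numbered 16, against 6 with FPKM, 7 with trends removed and 77 of 140 transcripts. All genes numbered 4908, against 1336 with FPKM, 2046 with TPM, 2387 with trends removed and 21586 of 39605 transcripts. Of the genes past 2-fold, 71.9% were higher after AAV-Wee1-AS, 56.8% under upper quartile scaling, which moved the median of all genes to −0.22, and 46.4% with trends removed. Epha1, Epha2, Ephb4, Efna1 and Efnb1 had a ratio below 1 in 10 of 11 alternatives each and above 1 once trends were removed. Ephb2, Ephb3, Ephb6 and Efnb2 kept their direction in 11 of 11, where the transcript alternative takes the form of highest count. Their values ranged from −7.96 (transcripts) to −0.82 (FPKM) for Ephb2, with −1.29 for TPM, from −0.95 to −0.07 for Ephb3, from −1.92 (upper quartile) to −0.32 (FPKM) for Ephb6 and from 0.32 (FPKM) to 5.80 (transcripts) for Efnb2. Single forms of Ephb2 (XM_006538534, 3.28) and Efnb2 (XM_011242036, −5.01) went the other way. Of the 9 genes past the filter, intervals are widest for Ephb3, Ephb6 and Ephb2.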
